A study of Neurospora crassa with 12 samples.

Results

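The analysis concerned 144 genes of the filamentous fungus *Neurospora crassa* whose transcript level differed between an *adat2*-silenced strain and wild type in opposite directions in 2 kinds of mRNA-seq. A gene entered the set when the ratio of its mean FPKM, Siadat2 over WT, was above 2 in one kind and below 0.5 in the other, when all 4 means were above 0, and when both libraries of one strain lay above both of the other in each kind. FPKM is a level of fragments or reads corrected for the length of the gene and the depth of the library. Of 9660 genes with complete values, 7434 had means above 0 in both kinds and could enter. There were 66 members that were higher in Siadat2 in the first kind and lower in the second, which is 0.888% of the 7434 genes, and 78 members with the reverse pattern, 1.05%. The values that chose these genes are given as a description and were not tested. Since every member was selected on its libraries not overlapping, the separation of the strains in the sentences below is a property of the selection.

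ADAT2 is the catalytic subunit of the heterodimeric enzyme that turns adenosine into inosine at the first anticodon position of several tRNAs, and it is needed for the decoding of codons ending in C in those families. The Siadat2 strain, 301-6, has a bd, A, his-3 background and carries an inverted repeat of *adat2* at the *his-3* locus under the *qa-2* promoter, which quinic acid (QA) switches on. It was purified to a homokaryon through microconidia. WT was strain 87-3 (bd, a), of the other mating type and without the construct. Mycelia of both strains grew in Vogel's medium with 0.1% glucose, added arginine and 0.01 M QA. They were grown for 3 days in plates and 1 day in shaken flasks, in constant light. Accompanying mRNA-seq came from cultures that received 50 µg/ml of the elongation inhibitor cycloheximide (CHX) for 10 min, with libraries from a ribosome footprint kit, whereas independent mRNA-seq had no CHX and used TruSeq libraries. Each strain had 2 libraries of each kind. RNA of the accompanying kind was a part of the cultures used for ribosome profiling, whereas the independent kind came from other cultures. The study names the Joint Genome Institute for its independent mRNA-seq and no site for the accompanying libraries. Cultures, CHX, library kit, read counting and normalization all differ between the kinds, as the sequencing site may, and cannot be told apart. Below, with CHX and without CHX only name the accompanying and the independent kind, and an effect of CHX was not tested. The labels number the replicates without saying how they were grown, while the study describes its replicates as independent biological ones.

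Transcript levels in growing hyphae answer to nutrient supply through a few well-known circuits. The cross-pathway control regulator CPC-1 activates genes for the synthesis of many amino acids when any of them is short, the *acu* genes serve growth on acetate through the glyoxylate cycle, the *pho* genes serve phosphate uptake and scavenging, and the *qa* cluster, driven by its activator *qa-1F*, breaks down quinic acid. Asexual sporulation has its own genes, among them the *con* genes and *eas*, the hydrophobin of the conidial rodlet layer. Members of the opposite-moving set belong to several of these circuits.

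The accompanying libraries held between 961703 and 2777576 reads in coding sequences. Independent tables give no counts, but their deposited read depth per FPKM was constant within a library and differed by 1.52 times between the shallowest and the deepest. The targeted gene itself was not lower in the libraries labelled Siadat2: *adat2* (NCU01888) was counted 16 and 90 times in those of the accompanying kind, against 8 and 25 times in those labelled WT. Per 1000000 reads in coding sequences (RPM) this was 10.3 and 32.4 RPM in Siadat2 against 8.32 and 10.6 RPM in WT, so the strains overlapped, and the gene was listed at 0 in all 4 independent tables. The construct carries *adat2* sequence, and its part in these reads was not tested. Siadat2 and WT therefore stand for the libraries so labelled throughout. The *mat A* genes, which Siadat2 carries and WT does not, had at most 2 reads in any accompanying library and were listed at 0 in every independent table, so they gave no check of the labels. The amino acid control gene *cpc-1* was higher in Siadat2 in both kinds, with ratios of 2.91 and 3.75, so the strains did not change places in every gene. Conidiation markers also moved with the strains. The 6 markers *con-6*, *con-8*, *con-10*, *con-13*, *eas* and *ccg-1* summed to 91338 and 74379 RPM in Siadat2 and 7557 and 7368 RPM in WT in the accompanying kind, with *con-13* at 0 reads in 1 WT library. In the independent kind the 4 *con* genes summed to 4346 and 5795 FPKM in Siadat2 against 2315 and 2261 FPKM in WT, so these 4 were higher in Siadat2 in both kinds, unlike the members. With *ccg-1* added the independent sums were 10398 and 14122 FPKM in Siadat2 against 24002 and 21786 FPKM in WT, so the sum of the 5 markers was lower in Siadat2 there, and *eas* was not analysed in that kind. Their part in the results was not tested, and in such bulk samples fewer cells of a type and less RNA per cell cannot be told apart.

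Opposite movement was the smaller share of the genes that differed past 2-fold in both kinds. Without a size threshold, 4377 genes had libraries that did not overlap in both kinds, and 1997 of these were opposite in sign. Past 2-fold and without overlap of the libraries, 21.9% of the 7434 genes were higher and 9.99% lower in Siadat2 in the accompanying kind, and 13.6% were higher and 11.7% lower in the independent kind. Among 762 genes past 2-fold in both, 385 (5.18% of the 7434) were higher in both, 233 (3.13%) were lower in both and the 144 members (1.94%) were opposite, which is 18.9% of the 762. Across the 7434 genes the log2 ratios of the kinds had a Pearson correlation of 0.30 and a Spearman correlation of 0.24, over genes that share the libraries and are not independent replicates. The median log2 ratio over all genes was 0.36 in the accompanying and -0.12 in the independent kind, so most genes were somewhat higher in Siadat2 in the one and somewhat lower in the other. With median-of-ratios size factors in place of the deposited scale, the set held 176 genes, 32 higher in accompanying and lower in independent and 144 with the reverse pattern, and 32 of the 66 and all 78 of the original members were among them. Genes lower in accompanying were thus the more numerous on either scale, narrowly on the deposited one, and no named member changed direction.

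**Figure D1:**
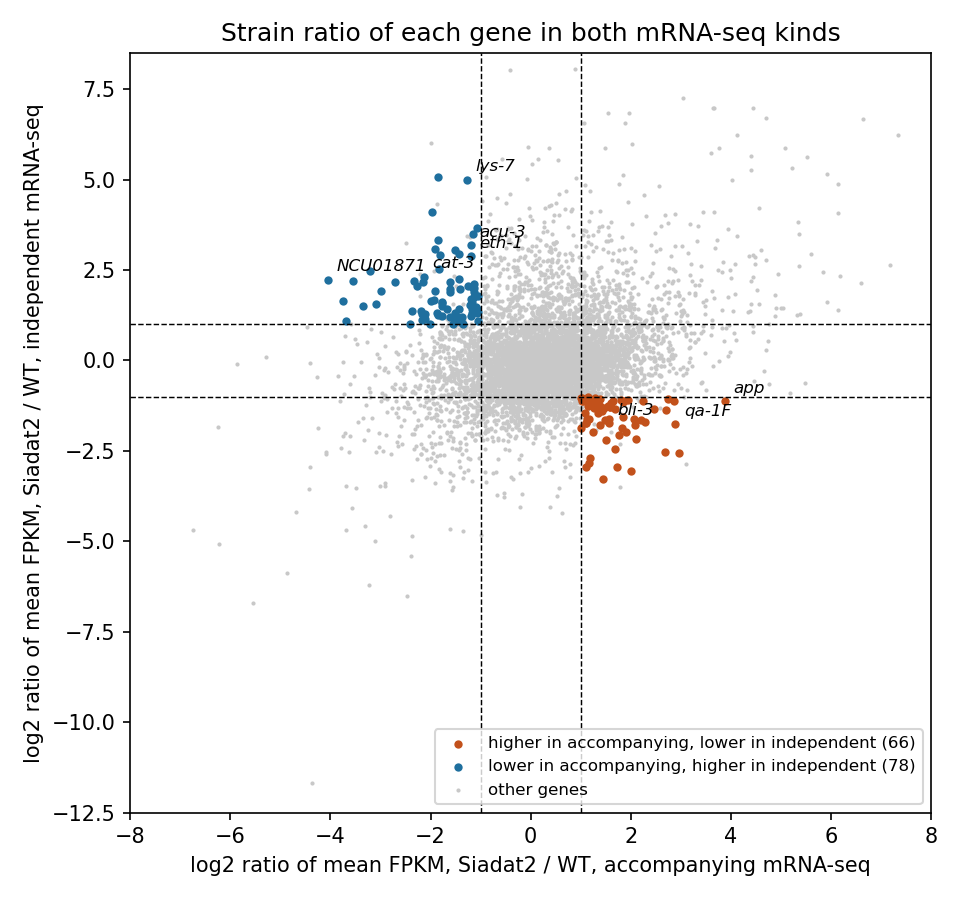
Log2 ratio of mean FPKM, Siadat2 over WT, in the accompanying mRNA-seq (x axis) and the independent mRNA-seq (y axis) for 7434 genes, with dashed lines at 2-fold. The 66 members at lower right and the 78 members at upper left lie beyond both lines, while 385 genes lie beyond them at upper right and 233 at lower left with libraries that do not overlap.

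Of the 78 genes lower in accompanying and higher in independent, 7 encode enzymes of branched-chain, lysine or sulfur amino acid metabolism. They were put together after their values were seen, and such genes were not counted among all 7434. The gene *leu-2* (NCU04385, chrIV:3538104-3541737 of the NC12 assembly) encodes 3-isopropylmalate dehydratase, which acts in leucine synthesis. In the accompanying libraries it had 58.3 and 57.0 FPKM in Siadat2 against 267 and 245 FPKM in WT, a ratio of 0.225. The independent libraries gave 65.3 and 42.9 FPKM in Siadat2 against 11.6 and 12.3 FPKM in WT, a ratio of 4.52. On these scales, which were set separately for each kind, Siadat2 had nearly the same FPKM of annotated transcripts in both. It was WT that had a high value in one and a low value in the other. With the unannotated transcripts that Cufflinks placed within the locus, the independent Siadat2 values were 84.6 and 73.7 FPKM and the ratio was 6.62. WT had no such transcripts there. Dihydroxy-acid dehydratase (NCU05683), which makes the keto acids of valine and isoleucine, had 30.1 and 32.8 FPKM in Siadat2 against 72.6 and 69.1 FPKM in WT in the accompanying and 27.7 and 26.7 FPKM in Siadat2 against 11.4 and 10.5 FPKM in WT in the independent kind, again with Siadat2 at a like level in both and WT changing place. A branched-chain aminotransferase (NCU00792), the last step of the pathway, had 51.6 and 37.7 FPKM in Siadat2 against 98.7 and 100.4 FPKM in WT with CHX and 96.5 and 91.2 FPKM in Siadat2 against 25.8 and 21.0 FPKM in WT without it. Its ratio was 0.448 in the first and 4.01 in the second, and it left the set when accompanying Siadat2 replicate 2 was omitted.

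Other genes of the branched-chain pathway were set beside these members, in a list drawn up after the values were seen. All 11 listed genes, the 3 members included, were higher in Siadat2 in the independent kind, with a median ratio of 7.09. In the accompanying kind the median was 0.752, with the 3 members lower past 2-fold and none higher. The members were thus the genes of the pathway with the lowest accompanying ratios, which is what selected them. The paralogs show the range: dihydroxy-acid dehydratase NCU04579 had 434 and 729 reads in Siadat2 against 260 and 630 reads in WT, a ratio of 1.03, where NCU05683 had 103 and 200 reads in Siadat2 against 157 and 363 reads in WT. A pair of near-identical copies could share reads, and whether these do was not tested.

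Lysine synthesis in fungi runs through α-aminoadipate, and 2 of its genes were members. The gene *lys-7* (NCU02954), for homoisocitrate dehydrogenase, had 75.7 and 82.5 FPKM in Siadat2 against 178 and 203 FPKM in WT in the accompanying kind. Its independent values were 72.1 and 67.6 FPKM in Siadat2, whereas WT replicate 1 had 4.37 FPKM and WT replicate 2 was listed at 0. An exact 0 in these tables can be a failed estimate, and *lys-7* had 707 reads in the accompanying library of WT replicate 2. Without WT replicate 2 the log2 ratio was 4.0, against 5.0 with it, without WT replicate 1 no ratio could be taken, and with the unannotated transcripts that Cufflinks placed within the locus it was 1.30, still past 2-fold. Saccharopine dehydrogenase (NCU03748), for a late step, had 53.7 and 49.7 FPKM in Siadat2 against 122 and 105 FPKM in WT with CHX, a ratio of 0.455. Without CHX it had 121 and 98.6 FPKM in Siadat2 against 28.8 and 30 FPKM in WT, a ratio of 3.74. Over the 5 lysine genes listed after the values were seen, all were higher in Siadat2 in the independent kind (median ratio 8.62), whereas in the accompanying kind 2 were lower, 1 was higher (*lys-3*, 2.13) and the median was 0.644.

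Sulfur amino acids contributed *eth-1* (NCU02657, chrI:3091094-3094485), the gene of S-adenosylmethionine synthetase. It had 81.7 and 84.3 FPKM in Siadat2 against 182 and 197 FPKM in WT in the accompanying kind. Its independent values were 189 and 169 FPKM in Siadat2 against 23.4 and 25.2 FPKM in WT, so the independent ratio of 7.36 was among the higher ones of the named members. Cystathionine β-lyase (NCU07987), which makes homocysteine for methionine, had 68.5 and 72.8 FPKM in Siadat2 against 153 and 148 FPKM in WT with CHX and 115 and 88.3 FPKM in Siadat2 against 38.9 and 40.3 FPKM in WT without. A second gene with that product, NCU00522, had an accompanying ratio of 1.25 and an independent ratio of 3.95, and was no member.

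The glycine cleavage system, a mitochondrial complex that splits glycine and feeds folate-bound carbon, had 2 of its measured proteins in the set. Glycine dehydrogenase (NCU02475, chrI:2434400-2438850) had 69.9 and 71.9 FPKM in Siadat2 against 164 and 148 FPKM in WT in the accompanying kind, a ratio of 0.455. The independent kind gave 178 and 156 FPKM in Siadat2 against 49.0 and 49.8 FPKM in WT, a ratio of 3.38. The T protein (NCU02727) had 85.0 and 77.5 FPKM in Siadat2 against 258 and 238 FPKM in WT with CHX and 338 and 276 FPKM in Siadat2 against 69.1 and 67.8 FPKM in WT without it. Its ratios were 0.328 and 4.49, and each strain had a like level in its own pair of libraries. The H protein (NCU08877) was lower in the accompanying kind as well (ratio 0.474), but had 199 and 54.4 FPKM in Siadat2 against 133 and 134 FPKM in WT in the independent kind, where the strains overlapped.

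Carbon and nucleotide metabolism gave *acu-3* and *ad-4*. Isocitrate lyase, the product of *acu-3* (NCU04230, chrV:5289251-5292173), opens the glyoxylate cycle. The gene had 403 and 359.6 FPKM in Siadat2 against 919.8 and 825 FPKM in WT in the accompanying kind, with 1201 and 1908 reads in Siadat2 against 1731 and 3768 reads in WT. Without CHX it had 580.3 and 520.0 FPKM in Siadat2 against 61.3 and 60.1 FPKM in WT, a ratio of 9.06 where the accompanying ratio was 0.437. WT had a mean of 872 FPKM in one kind and 60.7 FPKM in the other. The remaining *acu* genes did not follow it: *acu-5*, *acu-8* and *acu-9* were lower in Siadat2 in the accompanying kind (ratios 0.163, 0.133 and 0.285), but their independent ratios of 0.961, 0.871 and 1.31 were within 2-fold. The gene *ad-4* (NCU06187), for adenylosuccinate lyase of purine synthesis, had 222 and 299 FPKM in Siadat2 against 1111 and 1230.3 FPKM in WT and 144 and 114 FPKM in Siadat2 against 52.8 and 53.1 FPKM in WT in the accompanying and independent kinds. Uricase (NCU07853), which acts in purine breakdown, had 70.1 and 77.4 FPKM in Siadat2 against 389.7 and 376 FPKM in WT with CHX and 342 and 419 FPKM in Siadat2 against 148 and 145 FPKM in WT without it.

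Phosphate genes were represented by *pho-2* and *pho-5*, the repressible alkaline phosphatase and a high-affinity phosphate permease. For *pho-5* (NCU08325) the accompanying libraries held 15.2 and 18.0 FPKM in Siadat2 against 50.3 and 66.2 FPKM in WT. The independent ones held 35.8 and 35.3 FPKM in Siadat2 against 4.62 and 4.83 FPKM in WT, a ratio of 7.52. The gene *pho-2* (NCU01376) had 16.3 and 18.0 FPKM in Siadat2 against 48.5 and 56.1 FPKM in WT in the first and 34.2 and 30.4 FPKM in Siadat2 against 9.35 and 7.22 FPKM in WT in the second kind. Both Siadat2 values of each gene were below both WT values with CHX and above them without. Of the other phosphate genes in a list made after the values were seen, *pho-4* had ratios of 0.734 and 9.85 and *pho-3* had ratios of 0.147 and 0.398, so *pho-3* was lower in both.

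Other named members of the same pattern came from unrelated functions. Catalase-3 (*cat-3*, NCU00355, chrIII:3561379-3564584) breaks down hydrogen peroxide. Its accompanying values were 45.7 and 47.0 FPKM in Siadat2 against 222 and 186 FPKM in WT, and its independent values were 318 and 279.8 FPKM in Siadat2 against 56.4 and 63.4 FPKM in WT. Here Siadat2 was the strain with the larger difference between the kinds. The other catalase genes did not share this: *cat-2* had ratios of 1.70 in the accompanying and 0.400 in the independent kind, and *cat-4* had 3.05 and 1.14. Coproporphyrinogen III oxidase (NCU01546), an enzyme of heme synthesis, had 74.1 and 76.7 FPKM in Siadat2 against 710.3 and 822 FPKM in WT with CHX and 278 and 292 FPKM in Siadat2 against 107 and 95.4 FPKM in WT without, among the lowest accompanying ratios of the named genes at 0.0984. The gene *tom5* (NCU02474), for a small subunit of the mitochondrial import pore, had 121 and 126 FPKM in Siadat2 against 492 and 644 FPKM in WT and 108 and 145 FPKM in Siadat2 against 50.2 and 48.4 FPKM in WT in the accompanying and independent kinds. Of the other 6 TOM genes measured, *tom40* and *tom70* were also lower past 2-fold in the accompanying kind (ratios 0.491 and 0.318). None of the 6 was called higher in the independent kind, where *tom22* had a ratio of 1.91, *tom40* 1.56 and *tom70* 1.29.

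Some named members act in translation or ribosome synthesis, a grouping made after their values were seen. Products named as ribosomal proteins or for ribosome biogenesis were 1 of the 28 products known for the 78 genes, against 83 of 1794 for all genes, so they were no more frequent here. The nucleolar protein gene *nop-58* (NCU03396), whose product is a core protein of box C/D snoRNPs, had 33.0 and 31.6 FPKM in Siadat2 against 83.7 and 90.9 FPKM in WT in the accompanying kind. It had 36.1 and 29.2 FPKM in Siadat2 against 4.14 and 4.29 FPKM in WT in the independent kind, a ratio of 7.75. A lysyl-tRNA synthetase (NCU00931) had 11.3 and 13 FPKM in Siadat2 against 30.5 and 53.0 FPKM in WT with CHX and 6.83 and 7.51 FPKM in Siadat2 against 2.53 and 2.54 FPKM in WT without. The second gene of that product, NCU04020, had ratios of 0.662 and 6.90 and was not a member. Elongation factor Tu (NCU03737) and methionine aminopeptidase (NCU06923) had accompanying ratios of 0.433 and 0.362, and independent ratios of 2.89 and 2.28. Ribosomal protein L22 (NCU06661) rested on weaker ground. Its independent values were 239 and 279 FPKM in Siadat2, against 167 FPKM in WT replicate 1 and 36.6 FPKM in WT replicate 2, and an unannotated transcript of 139 FPKM stood within the locus in WT replicate 2 only. Adding it brought the ratio to 1.51, below the threshold, and the gene also left the set without independent WT replicate 2, accompanying Siadat2 replicate 1 or accompanying WT replicate 2.

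**Figure D2:**
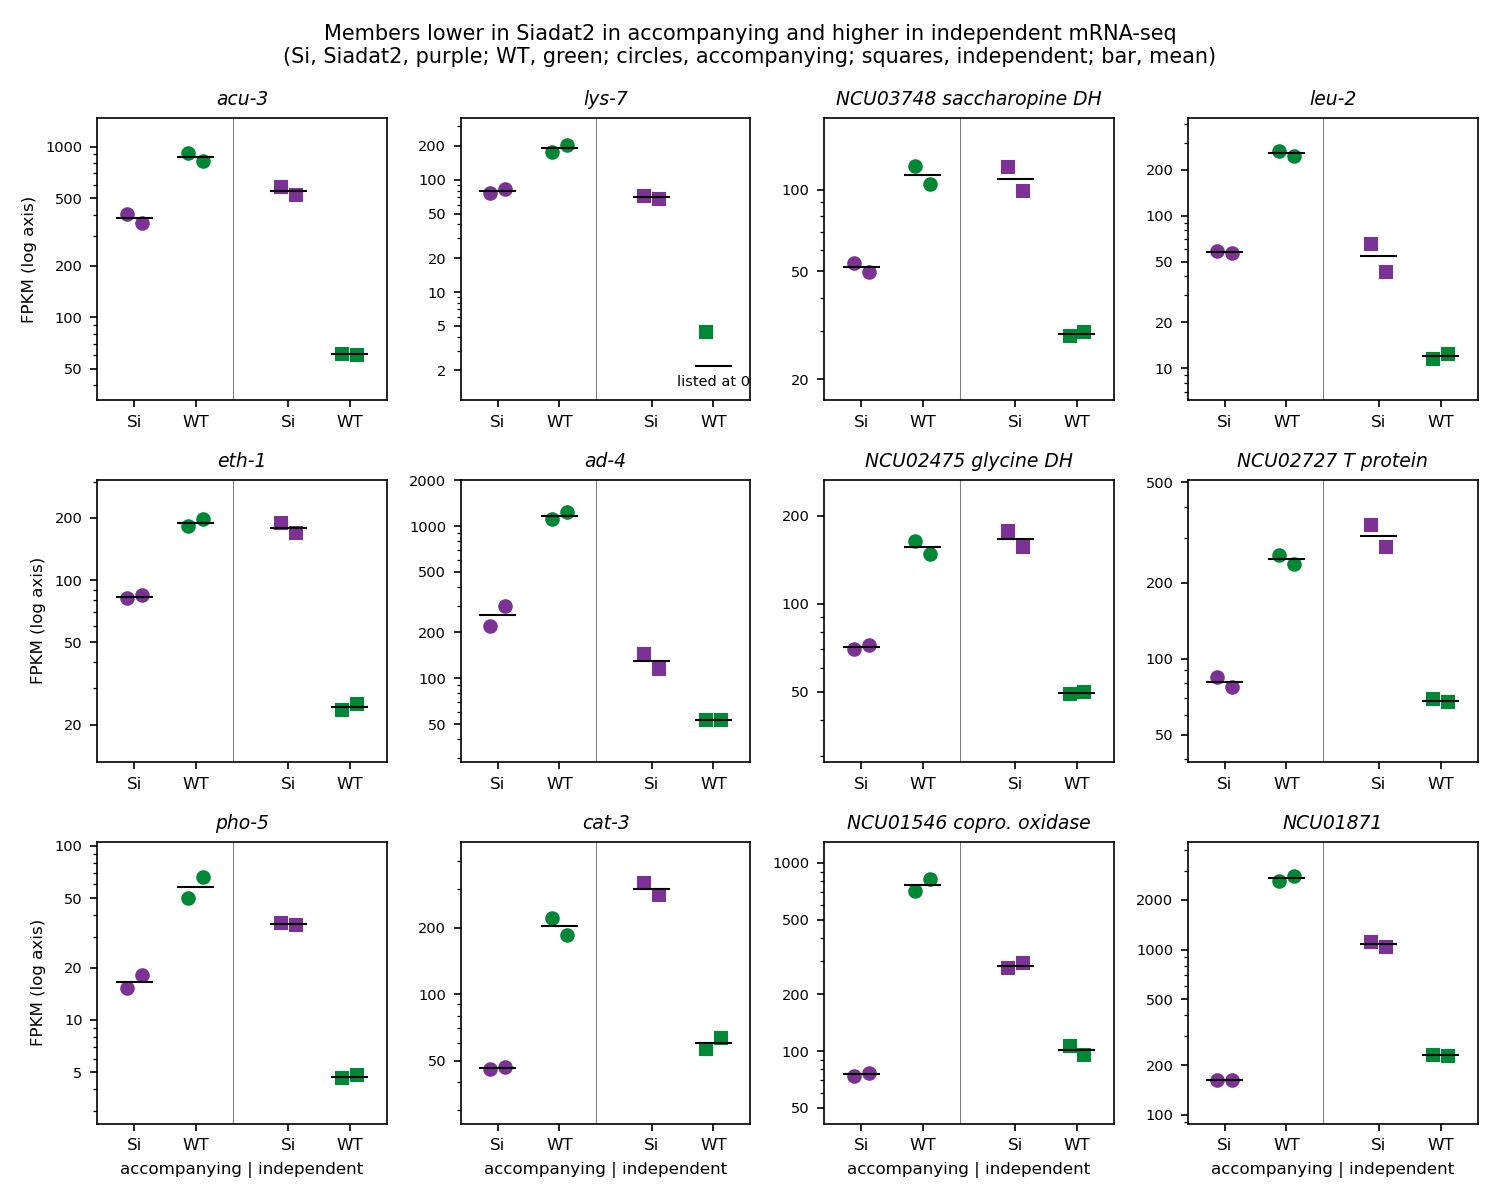
FPKM on log axes in each library for 12 of the 78 genes that were lower in Siadat2 in the accompanying kind (circles) and higher in the independent kind (squares), with Siadat2 in purple, WT in green and a bar at each mean. Siadat2 lies below WT at left and above WT at right in each panel. For *leu-2* Siadat2 keeps nearly 1 level of annotated transcripts while WT moves.

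Several of the lowest accompanying ratios belonged to genes with no named product in the sources used. NCU01871 (chrI:2195247-2199383) had 163 and 164 FPKM in Siadat2 against 2595 and 2790.1 FPKM in WT, a ratio of 0.0606, the lowest of all 144. In the independent kind it had 1117 and 1030.2 FPKM in Siadat2 against 230.1 and 228 FPKM in WT, all of it in the second of its 2 annotated transcripts. NCU06207 had 55.7 and 58.3 FPKM in Siadat2 against 602 and 728 FPKM in WT and 146 and 156 FPKM in Siadat2 against 31.6 and 34.4 FPKM in WT, and NCU01290 had 32.8 and 28.0 FPKM in Siadat2 against 295 and 269.5 FPKM in WT and 39.4 and 37.3 FPKM in Siadat2 against 6.4 and 7.42 FPKM in WT, in the accompanying and independent kinds. These genes were well covered, with sums of 13617, 3299 and 1808 reads over the accompanying libraries. NCU07257 (chrIV:4603386-4606442) had 5.28 and 14.6 FPKM in Siadat2 against 68.1 and 61.3 FPKM in WT with CHX and 120 and 139 FPKM in Siadat2 against 30 and 27.6 FPKM in WT without it, and NCU06815 (chrII:1868644-1871504) had 9.65 and 9.09 FPKM in Siadat2 against 49.6 and 41.4 FPKM in WT with CHX and 59.6 and 53.7 FPKM in Siadat2 against 14.6 and 12.9 FPKM in WT without it. Both stayed in the set under all 19 alternatives. NCU04234 shows the opposite end of depth, with 3 and 0 reads in Siadat2 against 9 and 40 reads in WT. A count of 0 among 2777576 reads allows up to 1.08 RPM there, and its independent values were 0.114 and 0.110 FPKM in Siadat2 against 0.0509 and 0.0211 FPKM in WT. The highest independent ratio belonged to NCU03561, with 48.4 and 41.8 FPKM in Siadat2 against 1.02 and 1.68 FPKM in WT, and there the accompanying values were 21.1 and 25 FPKM in Siadat2 against 80.1 and 86.3 FPKM in WT.

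Less abundant named members of the pattern were the cell wall protein gene *ncw-5* (NCU00716) and *gh10-3* (NCU04997), of a glycoside hydrolase family that holds xylanases. The gene *ncw-5* had 2 and 10 reads in Siadat2 against 4 and 17 reads in WT in the accompanying kind and 17.7 and 23.2 FPKM in Siadat2 against 6.50 and 6.16 FPKM in WT in the independent kind. For *gh10-3* the counts were 3 and 2 reads in Siadat2 against 8 and 14 reads in WT, and the independent values were 3.30 and 2.42 FPKM in Siadat2 against 1.57 and 1.26 FPKM in WT. Both left the set in at least 1 omission of a library, and *gh10-3* had an independent ratio of 2.02, close to the threshold. The remaining genes with a product were an acylase (NCU04130), an ABC transporter (NCU04097), phenol 2-monooxygenase (NCU06804), sorbitol dehydrogenase (NCU01905), a nuclear localization sequence binding protein (NCU03092) and a zinc knuckle protein (NCU08923). Their accompanying ratios lay between 0.117 and 0.469 and their independent ratios between 2.30 and 11.3. Adding unannotated transcripts brought NCU08923 to 1.39, and it also left the set without accompanying Siadat2 replicate 2 or independent Siadat2 replicate 1, as NCU03092 did without accompanying WT replicate 1.

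Among the 66 genes with the reverse pattern, *qa-1F* (NCU06028, chrVII:2040689-2043712), the transcriptional activator of the quinic acid cluster, was one of 7 that stayed in the set under all 19 of the alternatives that could remove a member, the stricter threshold aside. It had 63.8 and 63.4 FPKM in Siadat2 against 9.63 and 7.47 FPKM in WT in the accompanying kind, a ratio of 7.44. In the independent kind it had 14.0 and 11.4 FPKM in Siadat2 against 43.1 and 42.5 FPKM in WT, a ratio of 0.296. The values of the 2 Siadat2 libraries were close in each kind, as were those of WT. QA was in the medium of both strains, and the *adat2* construct uses the promoter of *qa-2*, a target of this activator. All 7 genes of the cluster had accompanying ratios above 1 and independent ratios below 1. The medians over all genes, 1.28 and 0.919, lay on the same sides of 1. The structural gene *qa-2* had 597 and 1094 reads in Siadat2 against 194 and 523 reads in WT, a ratio of 1.87 in FPKM, and 581 and 587 FPKM in Siadat2 against 793 and 796 FPKM in WT in the independent kind. *qa-Y*, the permease gene, had ratios of 4.57 and 0.542. Past 2-fold and without overlap, 5 of the 7 were higher in the accompanying kind and only *qa-1F* was lower in the independent kind, so the other 6 were no members.

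The gene *app* (NCU04533, chrVII:1539827-1540778), for the abundant perithecial protein, had the highest accompanying ratio of the 66. Its accompanying libraries had 1303 and 2373 reads in Siadat2 against 55 and 139 reads in WT, or 980.4 and 1002 FPKM in Siadat2 against 65.5 and 68.2 FPKM in WT. The independent libraries had 536 and 615 FPKM in Siadat2 against 1313 and 1198 FPKM in WT, a ratio of 0.458. WT went with the kind here, at a mean of 66.9 FPKM in one and 1256 FPKM in the other, while Siadat2 stayed within 2-fold. The gene *bli-3* (NCU07267), named for its induction by blue light, had 665 and 623 FPKM in Siadat2 against 219.6 and 212 FPKM in WT with CHX and 405 and 493 FPKM in Siadat2 against 1470.0 and 1502 FPKM in WT without. Both strains were grown in constant light, and any part of light in these values was not tested. A list of 7 clock and light genes, which does not hold *bli-3*, is described beside it. Of those 7, *al-1*, *al-2* and *al-3* of carotenoid synthesis were higher past 2-fold in Siadat2 in the accompanying kind (ratios of 12.3, 3.09 and 14.1). In the independent kind *al-1* was also higher past 2-fold (ratio 3.77), whereas *al-2* and *al-3* had ratios of 1.79 and 1.88. None of the 7 was lower past 2-fold in either kind.

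Enzymes with the same pattern included tripeptidyl-peptidase (NCU08418), a protease. It had 399.6 and 358 FPKM in Siadat2 against 116 and 121 FPKM in WT in the accompanying kind and 122 and 103 FPKM in Siadat2 against 288 and 278 FPKM in WT in the independent kind, and it too stayed in the set under all 19 alternatives. Protein disulfide-isomerase (NCU09223), which helps secreted proteins fold, had 312 and 339 FPKM in Siadat2 against 148 and 148 FPKM in WT with CHX. Its independent values were 181 and 136 FPKM in Siadat2 against 313 and 329.9 FPKM in WT, a ratio of 0.492 that left the set when Siadat2 replicate 2 or WT replicate 2 was omitted. A protein with a DUF636 domain (NCU01424) had 541 and 615 FPKM in Siadat2 against 208 and 232 FPKM in WT and 283 and 384 FPKM in Siadat2 against 1106 and 1186 FPKM in WT in the accompanying and independent kinds. An FAD-dependent oxidoreductase (NCU05069) and a lactonohydrolase (NCU01866) had accompanying ratios of 2.15 and 3.12, and independent ratios of 0.456 and 0.458. NCU05069 left the set without accompanying Siadat2 replicate 1, accompanying WT replicate 1 or independent WT replicate 2, and NCU01866 left it without independent WT replicate 1. The gene *ph7* (NCU08147) had 125 and 120.4 FPKM in Siadat2 against 55.6 and 55.7 FPKM in WT and 156 and 131 FPKM in Siadat2 against 331 and 271 FPKM in WT in the accompanying and independent kinds, and left the set without independent Siadat2 replicate 2 or WT replicate 1. With median-of-ratios size factors NCU09223, NCU05069, NCU01866, *ph7* and *gh45-1* were no members, and with same-numbered pairs each required to pass 2-fold, neither were *app*, NCU09223, NCU05069, NCU01866 and *gh45-1*.

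**Figure D3:**
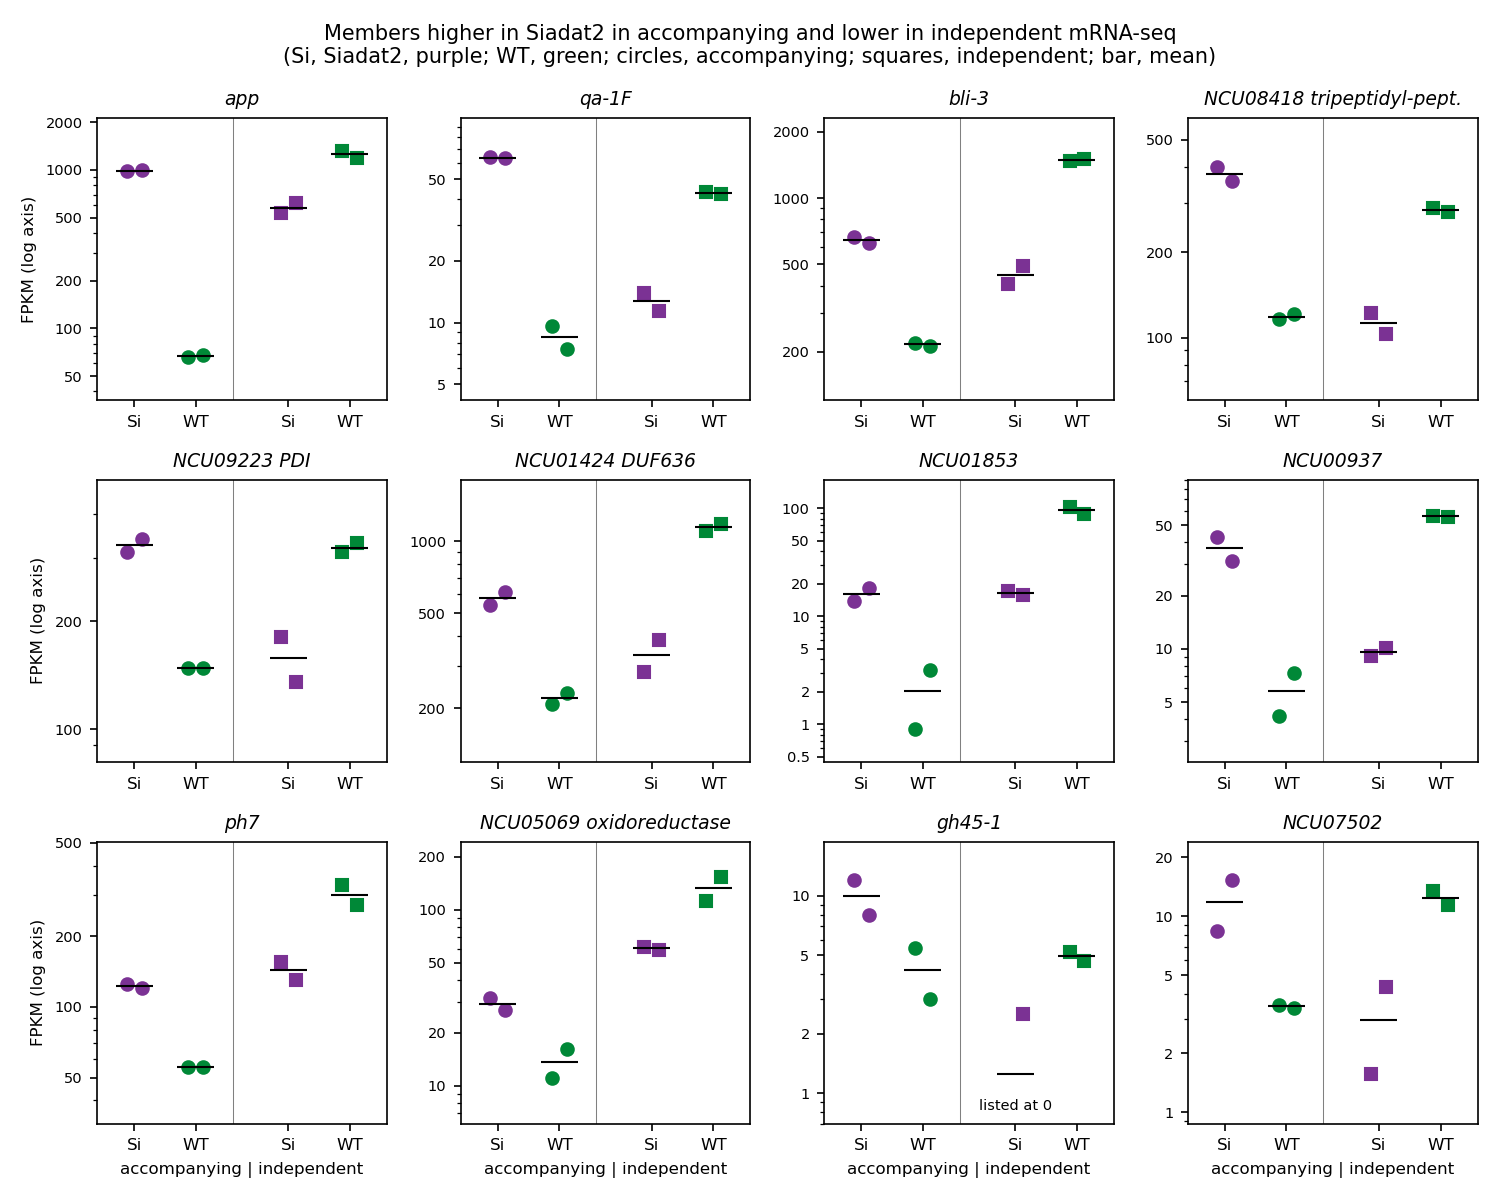
FPKM on log axes in each library for 12 of the 66 genes that were higher in Siadat2 in the accompanying kind (circles) and lower in the independent kind (squares), with Siadat2 in purple, WT in green and a bar at each mean. For *app* the WT mean is 66.9 FPKM at left and 1256 FPKM at right, and *gh45-1* has 1 Siadat2 library listed at 0, which a log axis cannot show.

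Unnamed genes gave the largest joint differences of this pattern. NCU01853 had 48 and 113 reads in Siadat2 against 2 and 17 reads in WT in the accompanying kind. It had 17.3 and 15.7 FPKM in Siadat2 against 104 and 88.8 FPKM in WT in the independent kind, so the ratios were 7.82 and 0.171. The WT reads were few and uneven: without WT replicate 1 the accompanying log2 ratio was 2.33, and without WT replicate 2 it was 4.14, against 2.97 with both. NCU00937 had 42.9 and 31.5 FPKM in Siadat2 against 4.18 and 7.31 FPKM in WT and 9.10 and 10.1 FPKM in Siadat2 against 56.7 and 55.4 FPKM in WT in the accompanying and independent kinds. The remaining 6 unnamed genes taken by size had few reads. NCU04233, NCU04393, NCU09039, NCU09103 and NCU09433 had between 21 and 46 reads over 4 libraries and at most 1.75 FPKM in any independent library, and NCU07502 had 34 and 110 reads in Siadat2 against 9 and 21 reads in WT. With unannotated transcripts added, NCU04233, NCU09039, NCU09433 and NCU07502 left the set, with independent ratios of 0.564, 0.573, 0.567 and 0.606 against 0.120, 0.288, 0.220 and 0.238 without them. The endoglucanase-family gene *gh45-1* (NCU05121) had 21 and 25 reads in Siadat2 against 6 and 8 reads in WT, and its independent values were 0 and 2.51 FPKM in Siadat2 against 5.19 and 4.69 FPKM in WT. It left the set in 4 of the 8 omissions of a library.

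The kinds differed within each strain too. For each gene the log2 ratio of its accompanying to its independent mean was taken in each strain, minus the median of all genes in that strain, which removes a difference in scale between the kinds. The values come from the means that chose the members, and the difference between the strains in this measure follows from the rule, so they are given as a description only. Over all genes the middle 50% lay between -0.64 and 0.70 in Siadat2 and between -0.84 and 1.01 in WT, so WT was the more widely spread. Among the 78 genes lower in accompanying, the median was -1.48 in Siadat2 and 2.53 in WT, with 6 of 78 above 0 in Siadat2 and 75 of 78 above 0 in WT. For the 66 genes higher in accompanying it was 0.64 in Siadat2 and -1.99 in WT, with 45 of 66 above 0 in Siadat2 and 5 of 66 above 0 in WT. For *leu-2*, Siadat2 stood at -0.44 and WT at 4.28, whereas *cat-3* stood at -3.23 in Siadat2 and 1.63 in WT.

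**Figure D4:**
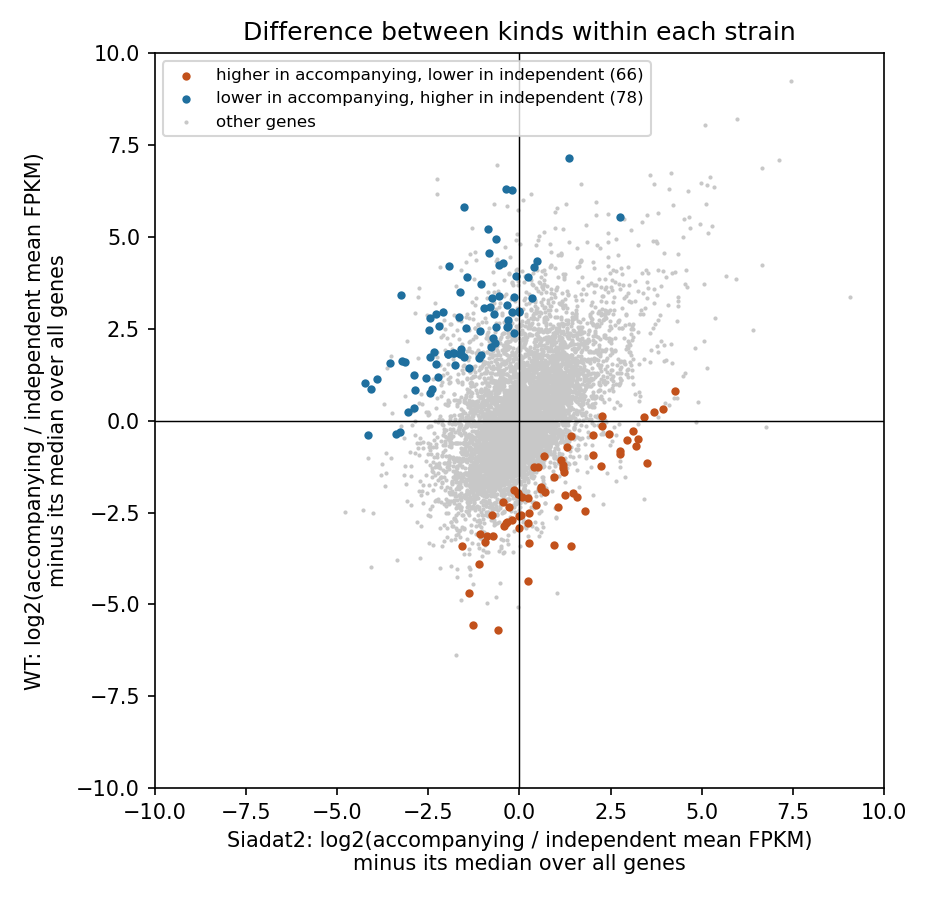
Log2 ratio of accompanying to independent mean FPKM, minus its median over all genes, in Siadat2 (x axis) and WT (y axis). The 78 genes (blue) centre on -1.48 and 2.53 and the 66 genes (orange) on 0.64 and -1.99, on either side of the cloud of other genes.

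Codon bias, which the rule did not use, was higher in the genes lower in accompanying than in all genes. The deposited codon bias index (CBI), near 1 for genes that use the preferred codons throughout and near 0 for no preference, had a median of 0.425 over the 78 genes, 0.220 over the 66 and 0.223 over all 7434. The index exceeded 0.497, the value that 9.98% of all genes exceed, in 30 of the 78 (38.5%) and in 4 of the 66 (6.06%). The zinc knuckle protein gene NCU08923 (0.851), ribosomal protein L22 (0.824), elongation factor Tu (0.805) and *eth-1* (0.787) were high, and NCU07405 (0.003) was the lowest of the 78. Genes with strong codon bias tend to be abundant, and the 78 genes also had more reads, with a median sum of 572 against 345 for all genes and 120.5 for the 66. The part of abundance in the difference was not tested, and genes are not replicates, so it has no p-value. Median coding length was 1338 nt for the 78 genes and 1244 nt for the 66, against 1433 nt for all.

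**Figure D5:**
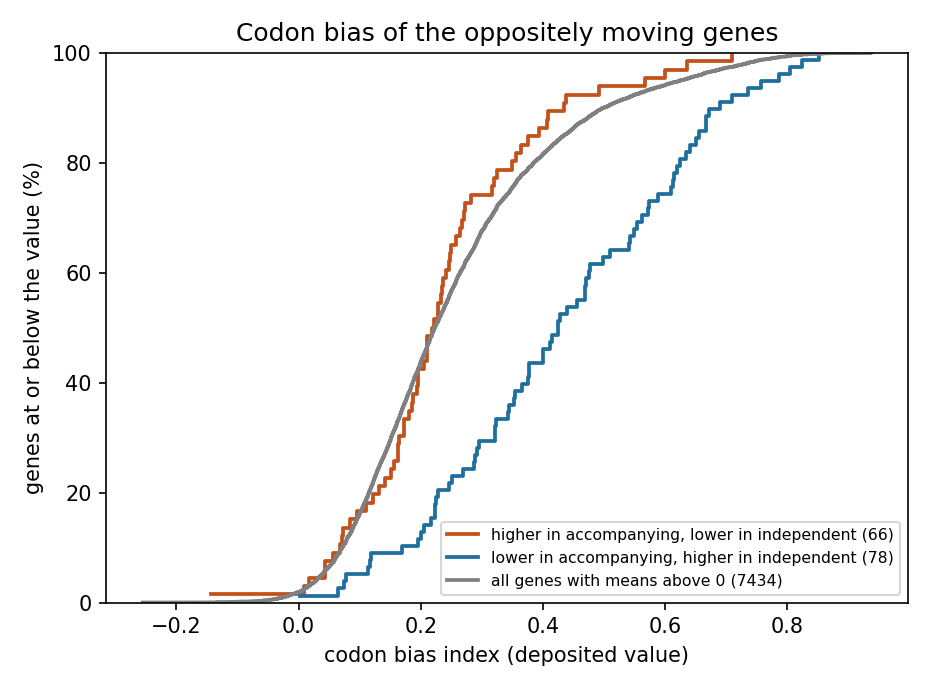
Cumulative share of genes (%) at or below each deposited codon bias index. The curve of the 78 genes lower in accompanying (blue) lies to the right of all genes (grey), with medians of 0.425 and 0.223, and the 66 genes higher in accompanying (orange) have a median of 0.220.

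By position, chromosome V held 20 of the 78 genes (25.6%) and 10 of the 66 (15.2%), against 16.6% of all, and chromosome VII held 8 of the 78 (10.3%) and 14 of the 66 (21.2%), against 10.6%. Other chromosomes departed too. Chromosome IV held 7 of the 78 (8.97%) and 14 of the 66 (21.2%), against 14.9%. Chromosome II held 9 of the 78 (11.5%) and 2 of the 66 (3.03%), against 10.6%. The chromosomes named were picked after the counts were seen. Only 9 members lay in 4 runs of adjacent coding genes. The run of 3 was NCU06063, NCU06062 and NCU06061 (chrVII:1935141-1943456), with accompanying ratios of 0.378, 0.474 and 0.291 and independent ratios of 3.93, 2.67 and 3.04. Another was *tom5* with the glycine dehydrogenase gene. The last pairs moved against each other: *ncw-5* and NCU00715 overlap at their ends, and NCU00715 had ratios of 3.03 and 0.439 where *ncw-5* had 0.437 and 3.23, while NCU04233 and NCU04234 are neighbours with few reads.

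Overlap and transcript models limit some values. Of the 66 and 78 genes, 14 (21.2%) and 16 (20.5%) overlap another gene of the NC12 table, against 22.7% of all. The use of strand in counting is not given in the sources used here, so reads of *app*, *bli-3*, *ph7*, *leu-2*, *tom5*, *ncw-5*, NCU00715, NCU00937, NCU01424, NCU01871, NCU02727, NCU04097, NCU04130, NCU05069, NCU06207, NCU06661, NCU06804, NCU07405 and NCU07853 could come in part from the partner. Cufflinks also listed unannotated transcripts within the locus of 24 of the 66 (36.4%) and 24 of the 78 (30.8%), against 24.5% of all. With their FPKM added, in an alternative chosen after the data were seen, 51 of the 66 and 72 of the 78 remained in the set. NCU04548 and NCU06400, with independent ratios of 0.141 and 0.154, came to 1.15 and 1.32, the 2 members that crossed 1. At least 1 independent library was listed at 0 for 11 of the 66 (16.7%) and 2 of the 78 (2.56%), against 6.28% of all, and 126 members had no 0 in any library of either kind.

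Counting error sets the other limit. In 61 of the 78 genes and 28 of the 66, the 95% Wilson intervals of RPM in the accompanying libraries of one strain lay wholly apart from those of the other. The lower summed reads of the 66 go with this. The intervals cover counting error only. These same libraries selected the members, and genes with such intervals were not counted among all genes. Near the threshold, the members NCU02623, NCU00877 and NCU05316 had ratios of 0.248 and 2.00, 0.342 and 2.01, and 2.02 and 0.274 in the accompanying and independent kinds. Just outside it, NCU09159 had 1.9999 and 0.298, NCU03935 had 0.436 and 1.99, and NCU05146 had 4.81 and 0.503. Of all members, 29 of the 66 and 41 of the 78 passed 3-fold in the accompanying kind, and 29 and 42 did so in the independent kind. The share of all genes past 3-fold was not counted.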

How the data were processed

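The 8 mRNA-seq libraries of 12 in the series were used. For the accompanying mRNA-seq the authors removed adaptors, short reads and rRNA and tRNA reads, and deposited the count of reads uniquely matched by Bowtie2 to each coding sequence with 100 bp added at each end, the FPKM over that length, and a codon bias index, a score per gene from CodonW. The independent kind was deposited as the authors' Cufflinks tables (TopHat2 and Cufflinks, per the submitters' processing notes, versions not given in the sources used here) of FPKM, its bounds and coverage, a read depth signal, per transcript of the NC12 assembly. Each FPKM lay outside its own deposited bounds for 23.0% to 28.0% of annotated transcripts, so the bounds were not used as an error. The codon occupancy files of the ribosome libraries hold values per codon and were not used.

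Here the FPKM of a gene's annotated transcripts were summed, genes not listed with all their transcripts in every table (70) were dropped, genes absent from an accompanying table were set to 0, and no pseudocount was used. The kinds were normalized separately, so their values are set side by side only, and no test was run. Strain means and ratios, Siadat2 over WT, were taken with Python 3.11.15, numpy 2.4.6 and pandas 2.3.3, and Wilson intervals (95%) with scipy 1.17.1. Symbols and coordinates came from the RefSeq gene table of NC12, in which all 144 members had the same start and end as in the deposited tables, and product names from the study's protein list, which holds 39 members. The set, its rule and all gene lists were chosen with earlier results of these data known. Members were named when they had a symbol or a product other than hypothetical (40 genes), when they were among the 8 of each direction with the largest smaller log2 ratio and at least 20 reads, or when they were the 3 nearest to the threshold. Other genes and lists named were drawn up after their values were seen, except the quinic acid, conidiation, clock and light, and amino acid control lists. Of the last, all 6 measured genes (*cpc-1*, *arg-2*, *arg-1*, *his-3*, *trp-3* and *leu-6*) were higher past 2-fold in Siadat2 in the independent kind and 2 in the accompanying kind, and none was a member. The construct of Siadat2 lies at the *his-3* locus, and its part in the *his-3* values was not tested. Of the 6 measured conidiation genes, 5 were higher past 2-fold in the accompanying kind and 3 in the independent kind. There *ccg-1* was lower past 2-fold, with an independent ratio of 0.349. Beside both lists, 21.9% of all 7434 genes were higher past 2-fold in the accompanying kind and 13.6% in the independent kind. No deposited product of a member holds the words heat shock or chaperone. Promoter motifs were not analysed, since no sequence was at hand. Thresholds, filters, pseudocounts, scaling, transcript choice, replicate pairing and each library were varied in turn.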

Additional observations from a re-analysis of the deposited data

Results flagged for a closer look

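All 144 genes were marked because the difference between Siadat2 and WT took one sign in both accompanying libraries and the other sign in both independent libraries. With 66 higher and 78 lower in the accompanying kind, this is what the rule selected. The difference between the kinds was not tested. Cultures, CHX, library kit, read counting and normalization change together from one kind to the other, so what accompanies the difference cannot be told apart.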

How the results depend on the processing

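The count of 144 genes became 604 at a threshold of 1.5 and 38 at a threshold of 3. With the replicate block, in which both same-numbered pairs of libraries had to pass 2-fold, it was 84, 31 higher and 53 lower in accompanying. Omitting each library in turn gave 153 to 180 genes, since 1 library less makes the strains separate more easily, and 74 of the 144 members remained in all 8 omissions, 27 of the 66 and 47 of the 78. Filters on FPKM or reads, pseudocounts of 0.1 and 1, RPM in place of FPKM, the first annotated transcript and strain means only gave between 104 and 193 genes. Leaving out genes with a 0 in any library gave 126, and leaving out overlapping genes gave 114. Under 19 alternatives, those with a lower or higher threshold or means only aside, 40 members remained throughout, 7 of the 66 and 33 of the 78. For the log2 ratios of named members, none of 839 alternative values changed sign. The labels do not say that a replicate number marks a shared culture, so these pairs share only a number. Deviations of same-numbered libraries correlated at 0.16 in the accompanying and -0.03 in the independent kind. Depth limits 5 of the 66 and 3 of the 78 genes, which had fewer than 20 reads over the 4 accompanying libraries.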
